A study of Mus musculus with 31 samples.

Results

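The messenger RNAs of 4 housekeeping genes, Actb, Gapdh, Eef1a1 and Hsp90ab1, were examined in mouse embryonic stem (ES) cells with and without Srap1, a protein with a SRAP domain. The genes were found by position on mouse build mm9, as the listed loci that overlap a fixed interval for each gene. These were 4 genes in tables of 8882 to 9295 loci for the wild type and 143073 loci for the knockout. The RNA libraries were 4 of wild-type and 2 of Srap1 KO ES cells, among 31 samples in the series. All were of strain 129SVxC57/BL6, were derived together, and grew on gelatin with leukemia inhibitory factor, inhibitors of GSK3β and Mek (2i) and ascorbic acid. RNA was depleted of ribosomal RNA and amplified for 12 cycles of PCR. The 2 deposited knockout tables held identical values and were counted as 1. The labels name no separate cultures or clones, so the spread over the 4 wild-type tables may be technical, and the knockout has no replicate check and no p-value.

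Housekeeping genes are transcribed in nearly every cell and are often used as internal standards for RNA measurements. Actb encodes β-actin of the cytoskeleton, and Gapdh encodes a glycolytic enzyme. Eef1a1 encodes the elongation factor that brings aminoacyl-tRNA to the ribosome, and Hsp90ab1 encodes the constitutive cytosolic HSP90 chaperone. Genes of this kind have left many processed pseudogenes, near-identical copies without introns, in mammalian genomes, so the place a read came from can be uncertain. Levels are in FPKM, a fragment count divided by transcript length and by the size of the library, with the lower and upper bounds that the authors' tables give. Loci carry no gene names, so each identity rests on position, and neither ES cell markers nor Srap1 itself were checked by name.

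Promoter sequences were at hand for only 2 of the 4 genes, Eef1a1 and Gapdh, and both are shown. Each is the 250 bases before the RefSeq start on the minus strand of build GRCm38.p6, printed 5′ to 3′ with matches of the searched motifs in capitals. The Gapdh sequence lies at chr6:125165774-125166023 and that of Eef1a1 at chr9:78481725-78481974.
Gapdh: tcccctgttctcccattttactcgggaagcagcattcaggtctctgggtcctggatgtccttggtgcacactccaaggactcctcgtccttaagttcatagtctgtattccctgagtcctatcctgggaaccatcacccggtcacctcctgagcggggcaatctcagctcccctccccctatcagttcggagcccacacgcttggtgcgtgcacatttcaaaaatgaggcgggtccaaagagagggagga
Eef1a1: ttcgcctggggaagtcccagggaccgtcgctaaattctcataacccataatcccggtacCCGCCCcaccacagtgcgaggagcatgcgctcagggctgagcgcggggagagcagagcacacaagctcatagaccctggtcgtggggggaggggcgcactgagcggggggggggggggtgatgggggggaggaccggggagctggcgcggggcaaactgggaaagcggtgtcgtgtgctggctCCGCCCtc
The motifs searched on both strands were the TATA box (TATAAA), the CAAT box (CCAAT) and the GC box (GGGCGG). The Eef1a1 window held the GC box 2 times and the other motifs 0 times, and the Gapdh window held none of the 3. Of 32851 RefSeq promoter windows of the same length, 32.7% held the GC box, 33.8% the CAAT box and 12.4% the TATA box. The share of G and C was 68% for Eef1a1 and 55.6% for Gapdh, against a median of 52.4% over all windows. A match of these letters is no evidence of a bound factor, and the RNA tables do not resolve start sites.

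The genes differed first in how they were listed. Eef1a1, in the interval chr9:78326200-78329600, and Hsp90ab1, in chr17:45704700-45710300, had a locus in every table. Actb, in chr5:143664700-143668500, was also listed in all 5 tables. Gapdh, in chr6:125111800-125115700, was listed in the knockout table and in 1 of the 4 wild-type tables. The main locus of a gene in a table was the one that covered most of its interval. Where 2 loci covered it equally, as for Hsp90ab1 in the knockout, the one with the higher FPKM was taken. It covered 93.7% to 95.1% of the Eef1a1 interval in the wild-type tables. For Hsp90ab1 this was 79.5% to 98.3%, and wild-type replicate 4 listed the gene as 2 loci of 863 and 4451 bases. For Actb it was 96.7% and 94.5% in replicates 1 and 3, but 52.6% and 70.5% in replicates 2 and 4. The disagreement lay at 1 end of the main loci. Over all 5 tables the high-coordinate ends of the main loci fell within 50 bases of each other for Actb, 45 for Eef1a1 and 27 for Hsp90ab1. The low-coordinate ends spread over 1655, 965 and 1042 bases in the wild type alone. For Hsp90ab1 this came from the split in replicate 4, whose main locus began at 45705772. Its second locus began at 45704731, close to the starts of 45704730 to 45704825 in replicates 1 to 3. For Eef1a1, which lies on the minus strand in RefSeq, the steady end is the side of the gene's start.

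**Figure D1:**
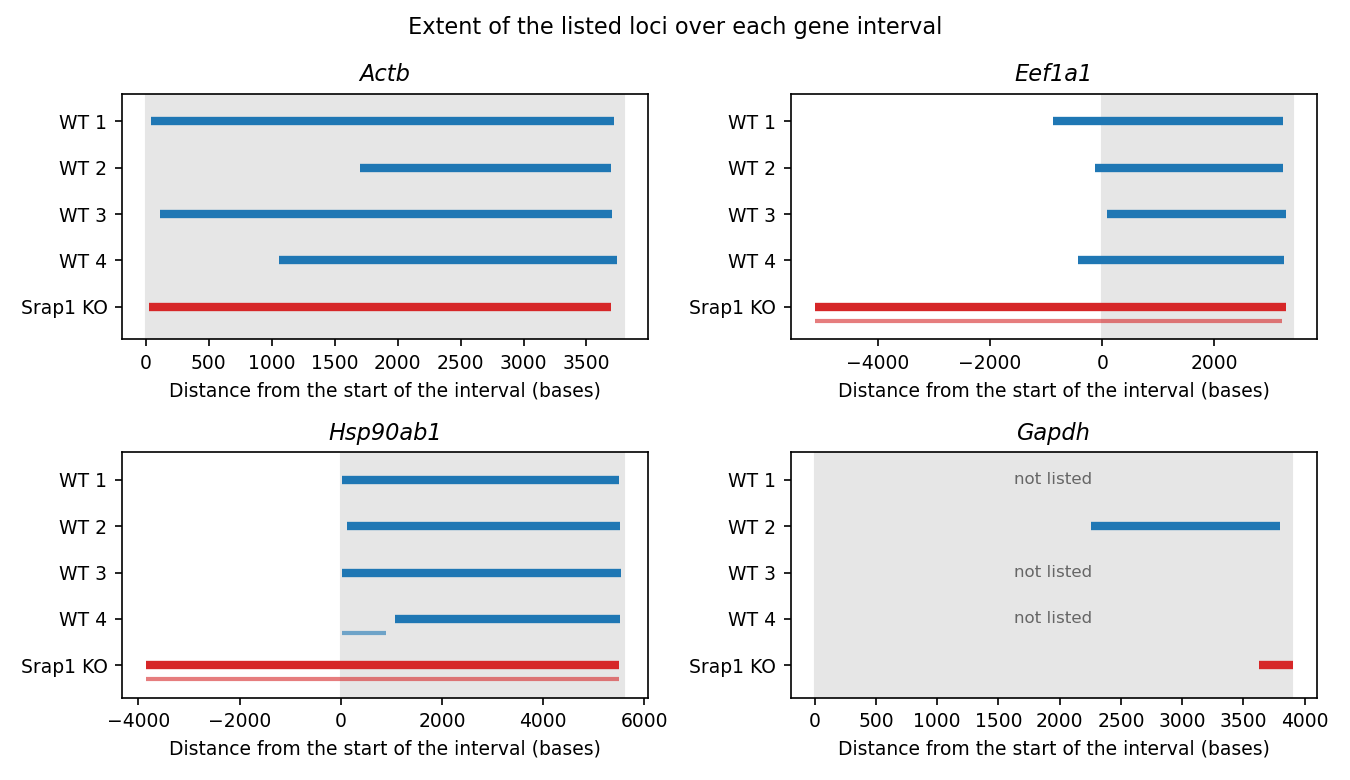
Listed loci over each gene interval, drawn as distance in bases from the start of the interval (grey band) for the 4 wild-type tables (blue) and the Srap1 KO table (red); thick lines are the main locus and thin lines other overlapping loci. The Actb locus is 1998 to 3675 bases wide in the wild type, Gapdh is not listed in 3 of the wild-type tables, and the Eef1a1 and Hsp90ab1 loci of the knockout begin 5123 and 3849 bases before the interval.

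In the knockout table the loci of Eef1a1 and Hsp90ab1 reached past the genes' intervals. Each gene had 2 overlapping loci there, which began together at 5123 bases before the Eef1a1 interval and at 3849 bases before that of Hsp90ab1. The protein-coding neighbour on this side, by gene order in GRCm38.p6, is Mto1 for Eef1a1 and Slc35b2 for Hsp90ab1. Whether the extended loci take in RNA of a neighbour was not tested. The Actb locus of the knockout kept within its interval and covered 96.4% of it.

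Actb was higher in the knockout table than in any wild-type table. Its level was 103 FPKM in wild-type replicate 1, 316 FPKM in replicate 2, 101 FPKM in replicate 3, 197 FPKM in replicate 4 and 420 FPKM in the knockout. The deposited bounds of the knockout, 404 to 435 FPKM, lay above all 4 wild-type bounds, of which the highest were 270 to 362 FPKM in replicate 2. On the scale of log2(FPKM + 1), used for all differences but those rescaled by an FPKM total, the knockout exceeded the wild-type mean by 1.39, or 2.62-fold. The wild-type tables themselves spanned 1.63 log2 units, with the level highest where the locus was narrowest. Its width was 1998 bases in replicate 2, 2680 bases in replicate 4, and 3592 and 3675 bases in replicates 3 and 1. With only the wild-type tables whose locus covered at least 80% of the interval, replicates 1 and 3, the difference was 2.03.

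For Eef1a1 the knockout value lay among those of the wild type. The gene had 217 FPKM in wild-type replicate 1, 271 FPKM in replicate 2, 416 FPKM in replicate 3, 257 FPKM in replicate 4 and 250 FPKM in the knockout. The log2 difference was -0.17, and the knockout bounds, 239 to 261 FPKM, were apart from those of 2 of the 4 wild-type tables. The wild-type values spanned 1.92-fold, and here too the highest level, in replicate 3, came with the narrowest locus, 3187 bases against 3352 to 4107 bases. The second knockout locus over the gene had 66 FPKM, and with both loci summed to 316 FPKM the difference was 0.17. Without replicate 3 it was 0.02, so the sign of the difference depended on these choices.

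Hsp90ab1 varied least over the wild-type tables by its main locus, though not with all its loci summed. Its level was 256, 240, 259 and 312 FPKM in wild-type replicates 1 to 4 and 321 FPKM in the knockout, a log2 difference of 0.27. The knockout bounds, 307 to 335 FPKM, overlapped those of replicate 4, 293 to 331 FPKM, and lay above those of the other 3. The standard deviation over the wild-type tables was 0.16 log2 units for Hsp90ab1, 0.40 for Eef1a1 and 0.79 for Actb. Replicate 4, in which the gene was split, held the highest wild-type level. Its second locus had 211 FPKM. The second knockout locus, with the same ends as the main one, had 38.7 FPKM. Summing the loci of each table gave 524 FPKM in replicate 4 and 360 FPKM in the knockout, a difference of 0.25. With these sums the knockout lay inside the wild-type range, and the wild-type standard deviation was 0.53 log2 units, above the 0.40 of Eef1a1.

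Gapdh was nearly missing from the tables. Wild-type replicate 2 listed it at 13.9 FPKM (bounds 9.42 to 18.3 FPKM), over 1543 bases of the interval. The knockout listed it at 12.8 FPKM (bounds 7.55 to 18.1 FPKM), in a locus of 280 bases at the high-coordinate end. Wild-type replicates 1, 3 and 4 listed no locus over the interval, so no call was made. Against replicate 2 alone the log2 difference was -0.10. In replicate 2 its level stood 4.42 log2 units below that of Actb, and in the knockout 4.93 log2 units below. Other transcribed loci were listed nearby, with 13 in the knockout and 4 to 6 in the wild type within 20 kb on either side of the Gapdh interval. The knockout table lists far more loci of any kind. The highest level among these nearby loci was 674 FPKM in the knockout and 32.1 to 112 FPKM in the wild type. The lowest level listed for any locus was 0.314 FPKM in the knockout and 1.55 to 2.11 FPKM in the wild type.

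**Figure D2:**
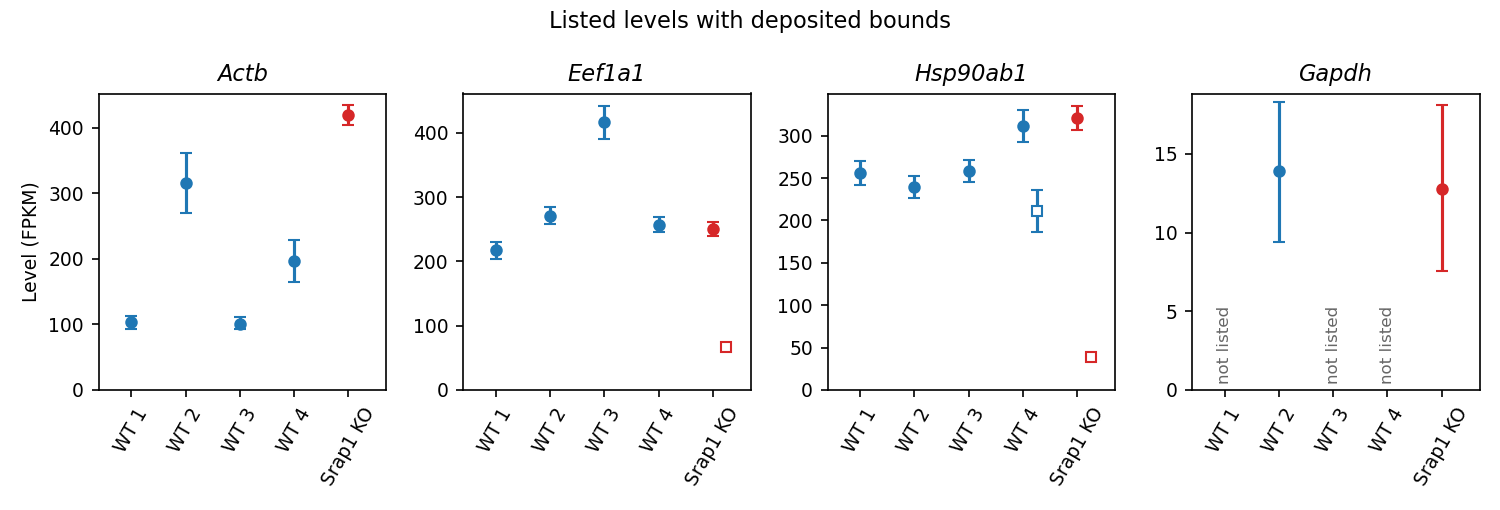
Level in FPKM of each gene in the 4 wild-type tables (WT, blue) and the Srap1 KO table (red), with the deposited lower and upper bounds as bars; filled circles are the main locus and open squares other loci over the same gene. Actb in the knockout, at 420 FPKM, lies above all wild-type values, Eef1a1 lies within them, and Gapdh has no locus in wild-type replicates 1, 3 and 4.

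As deposited, and by the rule for a call, a knockout value outside the wild-type range and at least 2-fold away, 1 of the 3 genes listed everywhere was higher in the knockout and 0 were lower. The same rule called 35.3% of 224 background loci higher and 16.1% lower. These paired loci were loci of wild-type replicate 1 that overlapped a locus of each other table by at least 80% of both widths. None of the 4 genes was among them. Actb and Hsp90ab1, 2 of the 3 genes, had a knockout value beyond the range of the wild type, as did 82.1% of the paired loci. With the loci of each table summed, 1 of the 3 genes, Actb, did. The knockout bounds were apart from those of all wild-type tables at 1 of the 3 genes and at 50.9% of the paired loci. With 3 genes these counts are a description only. They depend on the scale, and with fragments outside the chromosome 17 locus, described further on, 0 genes were higher and 2 lower. Among the 71 paired loci of at least 1000 bases and 50 to 500 FPKM, a set chosen after the values were seen, 54.9% were called. Their median difference was 0.78, with quartiles of -0.02 and 1.23. Actb lay above the upper quartile and Eef1a1 below the lower one.

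The wild-type tables disagreed on these genes. Of 18 comparisons between wild-type tables at Actb, Eef1a1 and Hsp90ab1, 13 had deposited bounds that did not overlap. At the paired loci this held for 7.44% of 1344 comparisons. The paired loci were selected for matching ends, which the genes' loci do not have. They were also not matched to the genes in level or in implied fragments, which bear on how wide the bounds are. These shares therefore do not show that the genes disagreed more than loci of like level. A span of at least 1 log2 unit over the wild-type tables occurred at 1 of the 3 genes, Actb, and at 15.6% of the paired loci.

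Ratios of genes within a table do not depend on how tables are scaled to each other. Actb stood at -1.07, 0.22, -2.03 and -0.39 log2 units relative to Eef1a1 in wild-type replicates 1 to 4 and at 0.75 in the knockout. The knockout ratio was above every wild-type ratio, by 1.56 over their mean. With summed loci the excess was 1.22, and the knockout stood at 0.41 against 0.22 in replicate 2, the highest wild-type ratio. Relative to Hsp90ab1, Actb stood at -1.31, 0.40, -1.34 and -0.66 in the wild type and at 0.39 in the knockout, which was inside the wild-type range. The excess over the wild-type mean was 1.12, and without replicate 2 it was 1.49 with the knockout outside the range. Eef1a1 relative to Hsp90ab1 was -0.24, 0.17, 0.68 and -0.28 in the wild type and -0.36 in the knockout, just under the lowest wild-type value. This was a difference of -0.44 from the wild-type mean, and -0.25 without replicate 3. With summed loci the difference was -0.09, and the knockout, at -0.19, lay between replicate 4 at -1.02 and replicate 3 at 0.68.

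The order of the genes changed from table to table. Hsp90ab1 was highest in wild-type replicates 1 and 4, Eef1a1 in replicate 3, and Actb in replicate 2 and in the knockout. Among loci of at least 300 bases, the 3 genes ranked between 31 and 183 of 8725 to 9118 loci in the wild-type tables. In the knockout Actb ranked 34, Hsp90ab1 53 and Eef1a1 72 of 110200. Gapdh ranked 5400 of 9032 in wild-type replicate 2.

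Depth was read from the deposited bounds, on the assumption that the upper bound lies 2 Poisson standard deviations above the level. Each wild-type table then held 895779 to 926460 fragments and the knockout 10804715, which is 11.8 times their mean. Fragments for each FPKM unit should grow with depth, and at the median paired locus they were 12.4 times the wild-type value in the knockout (quartiles 10.2 and 19). Against the wild-type mean the growth was smaller at the housekeeping genes, 2.74 times at Actb, 1.7 times at Eef1a1 and 1.39 times at Hsp90ab1. That mean hides a wide spread at Actb, with 4, 0.597, 4.82 and 0.802 fragments for each FPKM unit in replicates 1 to 4. The knockout had 6.99. The low values were those of replicates 2 and 4, whose Actb loci were narrowest, so the growth at Actb depended on the wild-type table. The fragment number implied at Actb was 411, 189, 488 and 158 in wild-type replicates 1 to 4 and 2937 in the knockout. Implied fragments therefore did not track the levels of these genes, and they were not used to measure them.

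The genes were next used as a yardstick for the totals by which tables are divided. In the wild type, 61.4% to 62.2% of implied fragments fell on a locus at chr17:39979900-39986000, against 3.51% for the knockout. It stood at 47660 to 50078 FPKM in wild-type tables and at 3046 FPKM in the knockout. It made up 0.00142% to 0.00564% of the summed FPKM of the wild-type tables and 0.0261% of that of the knockout. The sum was carried by short loci. Loci under 300 bases, 157 to 186 in each wild-type table, held 99.958% to 99.99% of it there, and 92.62% in the knockout. In wild-type replicate 1 a locus of 25 bases alone was listed at 1.48e+09 FPKM, or 55.6% of the total.

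Division by the FPKM total put Actb 8.88, Eef1a1 7.31 and Hsp90ab1 7.75 log2 units higher in the knockout, and 98.7% of the paired loci were called higher and 0% lower. Removing the chromosome 17 locus from the total left these 3 values as they were to 2 decimals. When the total was limited to loci of at least 300 bases and the chromosome 17 locus was removed, the differences were -0.03 for Actb, -1.60 for Eef1a1 and -1.15 for Hsp90ab1. By the rule for a call 2 of the 3 genes were then lower, as were 46.4% of the paired loci, and 1.79% of the paired loci were higher. That total was 858703 FPKM in the knockout and 294775 to 356054 FPKM in the wild type.

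FPKM divides by fragments, so the levels were also rescaled to the implied fragments outside the chromosome 17 locus. These rest on the same reading of the bounds. By it, fragments for each FPKM unit at the 3 genes grew less than depth against the wild-type mean, and at Actb they differed widely between wild-type tables. The scale is uncertain to that extent. The rescaling multiplied wild-type levels by 2.59 to 2.65 and knockout levels by 1.04. The log2 difference was then 0.06 for Actb, -1.51 for Eef1a1 and -1.06 for Hsp90ab1. The latter 2 passed the rule for a call, in a scale where 42.9% of the paired loci were called lower and 2.23% higher. The median of the 3 genes moved from 0.27 as deposited to -1.06, and that of the paired loci from 0.52 to -0.80. A scaling shifts the genes and the paired loci alike, so the gap between their medians, 0.25 to 0.27 over the 6 scalings run, follows from the deposited values and is no further result.

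**Figure D3:**
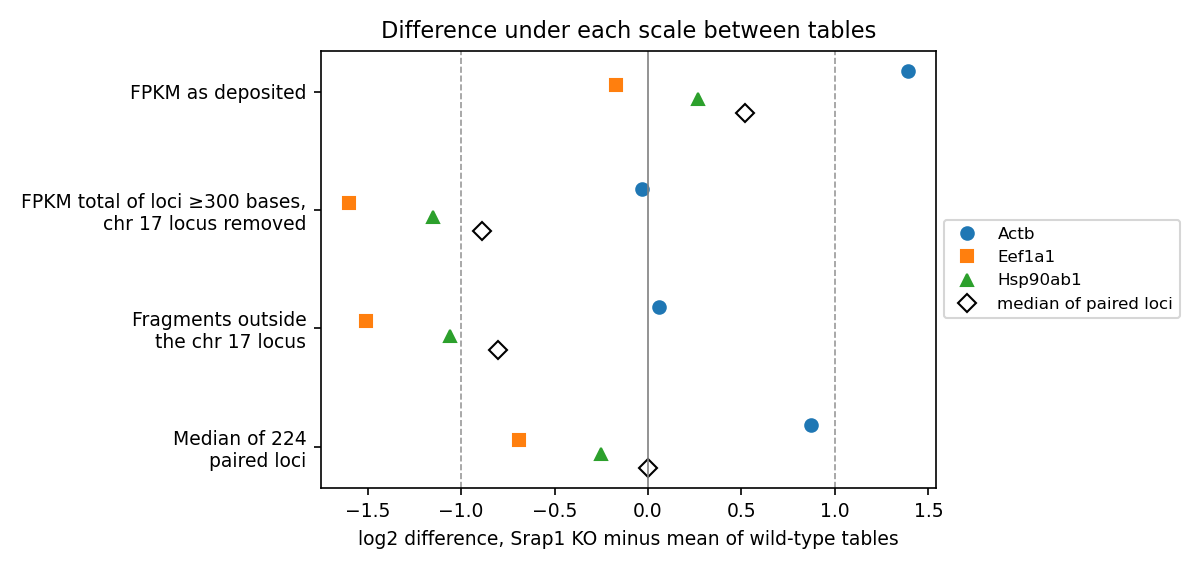
Log2 difference of the knockout from the mean of the wild-type tables for Actb, Eef1a1 and Hsp90ab1 and the median of 224 paired loci (open diamonds), under 4 scales between tables; dashed lines mark a 2-fold difference. Actb lies at 1.39 as deposited and at 0.06 with fragments outside the chromosome 17 locus, where Eef1a1 and Hsp90ab1 lie at -1.51 and -1.06; division by the whole FPKM total, at 7.31 to 8.88, is left out of the plot.

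As internal standards the 3 genes split the paired loci differently. With Actb held equal between the genotypes, 4 of the 224 paired loci were called higher in the knockout and 102 lower. With Eef1a1 held equal, 90 were higher and 31 lower. With Hsp90ab1 held equal, which is also the median of the 3 genes, 54 were higher and 41 lower. With no standard the split was 79 higher and 36 lower, and with the median of the paired loci held equal it was 33 and 51. The share of calls that were higher thus ran from 3.77% with Actb to 74.4% with Eef1a1.

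**Figure D4:**
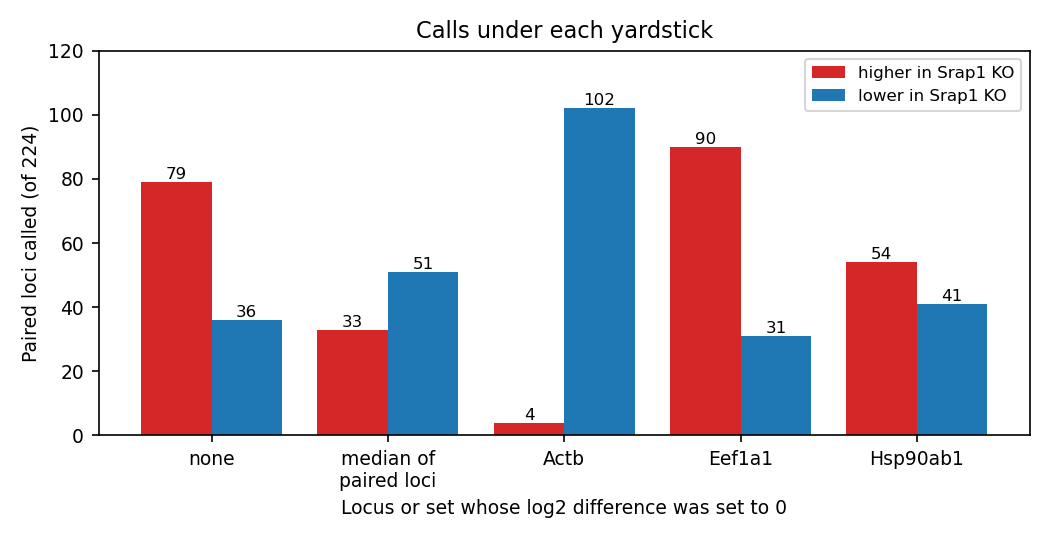
Number of the 224 paired loci called higher (red) or lower (blue) in the Srap1 KO table when no shift is made, or when the log2 difference of the named gene or set is put at 0. Higher calls fall from 90 with Eef1a1 to 4 with Actb, and lower calls rise from 31 to 102.

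Reads of an immunoprecipitation with control IgG of Srap1 KO genomic DNA (IgG DIP) show how well reads can be placed over the same intervals, since it measures no RNA. Of the reads over Gapdh, 13 of 26 had a mapping quality under 30, or 50% (95% exact binomial interval 29.9% to 70.1%, counting error only). It was 10 of 20 over Actb, 50% (27.2% to 72.8%). Over Eef1a1 it was 15 of 27, 55.6% (35.3% to 74.5%), and over Hsp90ab1 11 of 36, 30.6% (16.3% to 48.1%). In the 100 kb on either side of each gene it was 7.57% to 15%, and 20.7% over the library of 9127504 reads. Reads of low quality were thus more frequent over all 4 genes than in their flanks, and every lower bound lay above the value of the flank. The part that reads shared with other copies play in the RNA levels was not tested.

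The density of well placed IgG DIP reads was 2.63 per kb over Actb, 3.33 over Gapdh, 3.53 over Eef1a1 and 4.46 over Hsp90ab1. Relative to the flanks this was 0.576 (interval 0.275 to 1.06), 0.7 (0.371 to 1.2), 0.906 (0.466 to 1.59) and 0.916 (0.59 to 1.36). For these reads no difference from the flanks was detectable at this depth. With reads of every mapping quality the value for Eef1a1 was 1.73 (1.14 to 2.54), above that of the flanks, and the intervals of the other 3 genes took in 1.

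The 3 loci whose pattern over the 5 tables was most like the mean pattern of Actb, Eef1a1 and Hsp90ab1 were sought among 214 paired loci of at least 300 bases. Likeness was the Euclidean distance between centred log2 values. The genes did not share this mean pattern, as replicate 3 was lowest for Actb, at 101 FPKM, and highest for Eef1a1, at 416 FPKM. A locus near the mean is therefore not shown to behave like any 1 of the genes. The nearest, chr2:39983033-39983449, had 36.3, 52.9, 41 and 46.5 FPKM in wild-type replicates 1 to 4 and 64.9 FPKM in the knockout, at a distance of 0.13. Next were chr10:42221919-42255265 at a distance of 0.23 and chr15:82176484-82179465 at 0.35. The knockout level exceeded the wild-type mean at these loci by 0.56, 0.61 and 0.67 log2 units, which follows from the pattern they were chosen to match.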

How the data were processed

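RNA of wild-type and Srap1 KO ES cells was sequenced, and the authors deposited FPKM values with lower and upper bounds per locus, in the layout of Cufflinks output per the file headers. For RNA, build mm9, Cufflinks 2.2.1.0, Bowtie 0.12.8, Trim Galore 0.3.5 and MACS2 2.1.1 are listed in the submitters' processing notes, without settings. Locus IDs are numbered within each table, and locus ends differ between tables. The IgG DIP file deposited by the authors lists aligned reads with a mapping quality score. The notes name mm9 and mm10 for it, and its reads run past the ends of mm10 chromosomes 5 and 17, so mm9 was used.

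The genes, intervals and yardsticks were chosen with earlier results of these data known. Named loci are the 4 genes, the chromosome 17 locus and the 3 loci of nearest pattern. Differences are log2(FPKM + 1) of the knockout minus the wild-type mean, which understates low loci. Rescaling by an FPKM total used no pseudocount. Loci that reached 1 FPKM in 2 or more tables were paired by best mutual overlap of wild-type replicate 1 with each other table. This used bedtools 2.31.1 and Python 3.11.15. Pairing and calls were tested only on simulated loci whose ends moved little and whose noise was that of counting. Ends in the real tables differ more, so that test does not show how well real loci were paired. DIP reads were assigned by their midpoint. Alternatives changed the locus choice, scaling, pseudocount, overlap, filter and wild-type tables. A list of other housekeeping genes was not analysed here, as the tables hold no names.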

Additional observations from a re-analysis of the deposited data

How the results depend on the processing

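The coverage limit of 80%, the ratios between genes under alternatives and the set of similar level were chosen after seeing the data. Among the alternatives, scaling between tables moved the differences of the 3 genes most. For Actb the difference of 1.39 was no longer called at 0.87 with the median of the paired loci at 0 and at 0.06 with fragments outside the chromosome 17 locus, and was -0.03 with the FPKM total of loci of at least 300 bases without that locus. Under these 3 scalings in the same order Hsp90ab1 was at -0.25, -1.06 and -1.15, Eef1a1 at -0.69, -1.51 and -1.60, and the median of the 3 genes at -0.25, -1.06 and -1.15. With the FPKM total, with or without the chromosome 17 locus, Eef1a1 was at 7.31 and Hsp90ab1 and the median at 7.75, and 221 paired loci were called. The ratio of Actb to Hsp90ab1 passed the rule at 1.71 with the coverage limit. Leaving out each wild-type table gave 1.17 to 1.72 for Actb, -0.30 to 0.02 for Eef1a1, 0.22 to 0.35 for Hsp90ab1 and for the median of the 3 genes, and 0.91 to 1.49 for the ratio of Actb to Hsp90ab1. The paired loci called were 115, and 334 of 833 at an overlap of 50%, 66 of 124 at 90% and 39 in the 71 loci of similar level. These settings change how many loci are compared. With reads of every mapping quality, the IgG DIP density relative to the flanks was 1.29 at Gapdh and 1.73 (1.14 to 2.54) at Eef1a1. Of 19 recomputed totals of paired loci called, 14 stayed within 1.5 times, but in 4 of these lower calls outnumbered higher ones, against 79 higher and 36 lower as deposited. These were 4 and 104 with the FPKM total of wide loci, 5 and 96 with fragments outside the chromosome 17 locus, 33 and 51 with the median of the paired loci, and 4 and 102 with Actb as standard. Of the 113 other recomputed values, 93 stayed on their side of the rule or within their spread. Part of these could not change, since ratios within a table do not depend on scaling and the locus of highest FPKM was always the main one. Eef1a1 at 0.17 with summed loci and 0.02 without replicate 3 counted as unchanged, although its sign differed from -0.17. Pseudocounts of 0.1 and 10 changed no call at the 3 genes. The filter on low values removed none of them. In 6 quantities examined over the wild-type tables, 0 had an outlying table by a rule on 4 values, which has little power. This does not show that the tables were alike. The FPKM total was 8.46e+08 in replicate 2 and 2.39e+09 to 3.5e+09 in the other wild-type tables. The top locus held 24.7% of it in replicate 4 and 55.6% to 56.6% in the others. No paired analysis was possible because the knockout has 1 distinct table. Its depth is known only through the bounds.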
